A study of Rattus norvegicus with 4 samples.

Results

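8 genes of the basement membrane were followed in trigeminal nerve tissue of the rat. They are the nidogens Nid1 and Nid2, the laminin chains Lama2, Lama4, Lamb1 and Lamc1, and the heparan sulfate proteoglycans perlecan (Hspg2) and agrin (Agrn). They were chosen by name, with earlier results of these data known, as rows of the deposited gene list that carry these symbols. Of the 8, 7 were found by symbol among the 32623 genes of the matrix. Hspg2 was read from a row that bears a contig name and the identifier ENSRNOG00000021437, a name that RefSeq lists as a synonym of Hspg2. That row held between 15 and 65 unique molecular identifiers (UMIs) per capture area, so its values rest on few molecules.

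RNA was captured on 4 Visium areas, in which each spot of the slide carries its own barcode and can hold several cells or parts of cells. The trigeminal neuralgia (TN) areas TN 1, TN 2 and TN 3 each held the root, the ganglion and the nearest branches of 1 rat, taken from the side whose trigeminal root had been compressed mechanically. The healthy control (HC) area held tissue of 2 rats in 1 area, so HC counts as 1 sample. By the series description these were 2 of the 3 TN rats, sampled on their uninjured side, whereas the methods of the study speak of sham-operated controls. HC may therefore share animals with 2 of the TN areas, and the labels do not say which. All rats were adult male Sprague–Dawley rats labelled as wild type. The matrix held 1587, 1256, 1917 and 2013 spots of TN 1, TN 2, TN 3 and HC, with 23546025, 38769935, 32239597 and 41335930 UMIs. The areas share 2337 barcodes, which are those of the slide and do not mark shared cells.

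Basement membranes are thin sheets of matrix that surround Schwann cells, satellite glia, perineurial cells, blood vessels and muscle fibres. Laminins are trimers of an alpha, a beta and a gamma chain that polymerise on the cell surface, where integrins and dystroglycan hold them. Nidogens link the laminin network to the collagen IV network, and perlecan and agrin bind both networks and growth factors. In peripheral nerve, the laminin made of the chains of Lama2, Lamb1 and Lamc1 is the main one of the Schwann cell sheath and is needed for the sorting and myelination of axons. The laminin with the chain of Lama4 is found around vessels and also in the Schwann cell sheath.

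The stretches before the start sites of the genes for the 3 chains of that Schwann cell laminin are given here, because these genes varied together over regions and areas, and beside them those of Lama4 and Nid1, as another laminin chain and a nidogen. They are the 250 bases before each RefSeq start site on GRCr8, read 5′ to 3′ on the strand of the gene. Capitals mark the GC box GGGCGG on either strand, the core of the binding motif of Sp1-type factors.
Lama2, chr1:19491896-19492145, plus strand: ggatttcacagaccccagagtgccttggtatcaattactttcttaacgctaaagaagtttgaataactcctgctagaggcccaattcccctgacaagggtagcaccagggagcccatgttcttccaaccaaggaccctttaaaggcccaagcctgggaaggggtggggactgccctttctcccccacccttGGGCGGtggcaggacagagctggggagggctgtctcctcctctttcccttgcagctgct
Lamb1, chr6:53562846-53563095, plus strand: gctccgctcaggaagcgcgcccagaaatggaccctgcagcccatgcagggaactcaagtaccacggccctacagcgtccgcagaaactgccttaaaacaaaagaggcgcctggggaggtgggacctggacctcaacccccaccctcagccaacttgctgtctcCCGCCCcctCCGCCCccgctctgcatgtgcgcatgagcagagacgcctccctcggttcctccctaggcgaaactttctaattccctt
Lamc1, chr13:68051987-68052236, minus strand: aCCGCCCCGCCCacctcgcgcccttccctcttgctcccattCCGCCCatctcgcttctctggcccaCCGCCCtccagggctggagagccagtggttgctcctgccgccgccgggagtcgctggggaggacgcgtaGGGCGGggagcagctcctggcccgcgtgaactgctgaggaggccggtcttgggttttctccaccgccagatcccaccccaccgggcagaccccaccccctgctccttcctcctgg
Lama4, chr20:43946648-43946897, plus strand: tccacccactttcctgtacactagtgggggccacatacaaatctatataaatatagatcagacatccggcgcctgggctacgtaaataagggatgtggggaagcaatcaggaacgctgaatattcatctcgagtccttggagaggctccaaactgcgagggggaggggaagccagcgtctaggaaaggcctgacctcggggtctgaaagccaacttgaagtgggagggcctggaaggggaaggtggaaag
Nid1, chr17:93069036-93069285, plus strand: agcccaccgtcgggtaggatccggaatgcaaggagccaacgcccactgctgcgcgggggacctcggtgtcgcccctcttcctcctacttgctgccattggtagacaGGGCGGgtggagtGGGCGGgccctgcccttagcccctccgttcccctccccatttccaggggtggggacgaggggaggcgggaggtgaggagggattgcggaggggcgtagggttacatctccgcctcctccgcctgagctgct

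A window was held for 7 of the 8 genes. A GC box stood in 5 of the 7, all but Lama4 and Agrn, against 30.5% of 33469 rat windows of the same length. Lamc1 and Hspg2 had 5 matches each, some of them overlapping in Lamc1. The AP-1 motif TGANTCA, searched on both strands, stood in 0 of the 7 windows and in 6.34% of all windows. The TEAD motif GGAATG, searched on both strands, stood in the windows of Nid1 and Lamc1 and in 12.1% of all windows. The median GC content was 62% over the 7 windows and 51.2% over all windows. A match describes the letters of the window and does not show that a factor binds there.

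Spots were grouped into regions by K-means on expression, with the 8 genes and 60 related genes kept out of the clustering. Clusters took the name of the marker list with their highest score, which need not hold the genes with the largest fold. The ganglion region joined 3 clusters that scored highest on the sensory neuron list, and Calca and Tac1 of that list were among the 10 leading genes of 1 of them. It held 182, 198, 204 and 333 spots of TN 1, TN 2, TN 3 and HC. The nerve region, led by peripheral myelin genes such as Prx, held 408, 259, 573 and 259 spots. The central region, led by genes of astrocytes, oligodendrocytes or central neurons, held 595, 306, 380 and 424 spots. The connective region scored highest on the connective tissue list, of which Mgp alone was among its 10 leading genes, headed by Lbp and Gjb2. It held 26, 208, 320 and 14 spots, so HC had too few for a comparison. The other spots fell into a blood and bone cluster and a cluster whose leading lists, sensory neuron and peripheral myelin, lay too close for a name. Levels are UMI counts divided by the UMI total of that region in that area, in CPM (counts scaled to the same total). They are not divided by transcript length. Each gene is read across regions and areas, and genes are not ranked by level.

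Across regions, the laminin and nidogen genes were highest in nerve or connective spots and lowest in central spots. In every area with enough spots, 7 of the 8 genes were higher in the nerve region than in the ganglion, and all 8 were higher in the connective region. The connective values of TN 1 rest on 26 spots, with 1 UMI of Hspg2, 15 of Lamc1 and 16 of Nid2. Hspg2, with few UMIs, was below the ganglion in 1 area of the connective region without integration and with log-normalised counts. Agrn was the exception in nerve. In the central region, 6 of the 8 were below the ganglion in all 4 areas. These are descriptions without a test, since regions are clusters of the same spots. Apart from Nid1 and Hspg2 in TN 3, whose lowest level was in the ganglion, each gene had its lowest level in central spots in every area.

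Lamb1, the beta chain of most laminins, was highest in nerve in all 4 areas. It reached 435, 471 and 480 CPM in the nerve region of TN 1, TN 2 and TN 3 and 178 CPM in that of HC. Its ganglion levels were 126, 178, 221 and 83.0 CPM in the same order, and its central levels 30.6, 66.5, 141 and 23.3 CPM. The log2 ratio of nerve to ganglion, on CPM plus 1, was 1.35 ± 0.32 (SD, n = 4 areas), and that of central to ganglion was -1.46 ± 0.60.

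Lamc1, the gamma chain shared by most laminins, followed the same order at 74.3, 102, 87.0 and 36.3 CPM in the nerve region of TN 1, TN 2, TN 3 and HC. In the ganglion it stood at 19.2, 44.8, 40.4 and 19.1 CPM. TN 1 lay with HC there, whereas TN 2 and TN 3 lay well above both. The nerve to ganglion log2 ratio was 1.26 ± 0.44 and the central to ganglion log2 ratio -0.82 ± 0.41 (SD, n = 4 areas).

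Lama2, the alpha chain of the Schwann cell laminin, stood at 206, 130, 119 and 45.2 CPM in the nerve region of TN 1, TN 2, TN 3 and HC. Its ganglion levels were 43.3, 51.6, 49.9 and 19.9 CPM. The nerve to ganglion log2 ratio was 1.48 ± 0.50 (SD, n = 4 areas), with every area above 1.14. In the connective region the 3 TN areas held it at 143, 149 and 132 CPM, with an SD of 8.75 CPM. The TN 1 value there rests on 46 UMIs.

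Lama4, the alpha chain of vessel walls, stood at 62.4, 49.4, 23.3 and 13.5 CPM in the nerve region of TN 1, TN 2, TN 3 and HC. It reached 74.7, 58.5 and 24.2 CPM in the connective region of TN 1, TN 2 and TN 3. TN 3 was the lowest of the TN areas in all of these and in the ganglion, where the values were 24.1, 20.05, 10.98 and 6.72 CPM. The nerve to ganglion log2 ratio, 1.13 ± 0.20 (SD, n = 4 areas), had the smallest SD among the 8 genes.

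Nid1, nidogen-1, stood at 178, 44.4, 62.2 and 21.8 CPM in the nerve region of TN 1, TN 2, TN 3 and HC. TN 1 lay far above TN 2 and TN 3, and all 3 lay above HC. The nerve to ganglion log2 ratio ran from 1.29 to 2.58, with the highest value in TN 1. Nid2, nidogen-2, stood at 50.8, 33.8, 34.7 and 4.13 CPM in nerve and at 49.84, 60.1 and 49.98 CPM in the connective region of the TN areas. In HC its nerve and ganglion levels were close, with 4.13 and 3.72 CPM, and its nerve to ganglion log2 ratio there was 0.12, the lowest of the 4 areas.

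Agrn, which clusters acetylcholine receptors at the nerve-muscle junction and is also made by glia and neurons, did not share the nerve pattern. In nerve it stood at 40.1, 111, 80.6 and 40.2 CPM and in the ganglion at 48.9, 75.6, 68.3 and 42.5 CPM, for TN 1, TN 2, TN 3 and HC. TN 2 and TN 3 were higher in nerve than in the ganglion, and TN 1 and HC were lower, which left a log2 ratio of 0.10 ± 0.36 (SD, n = 4 areas). Its connective levels, 59.2, 154 and 122 CPM in the TN areas, were its highest in each. The row taken as Hspg2 had 6, 25, 20 and 7 UMIs in the nerve region, against 5, 4, 6 and 7 in the ganglion.

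**Figure D1:**
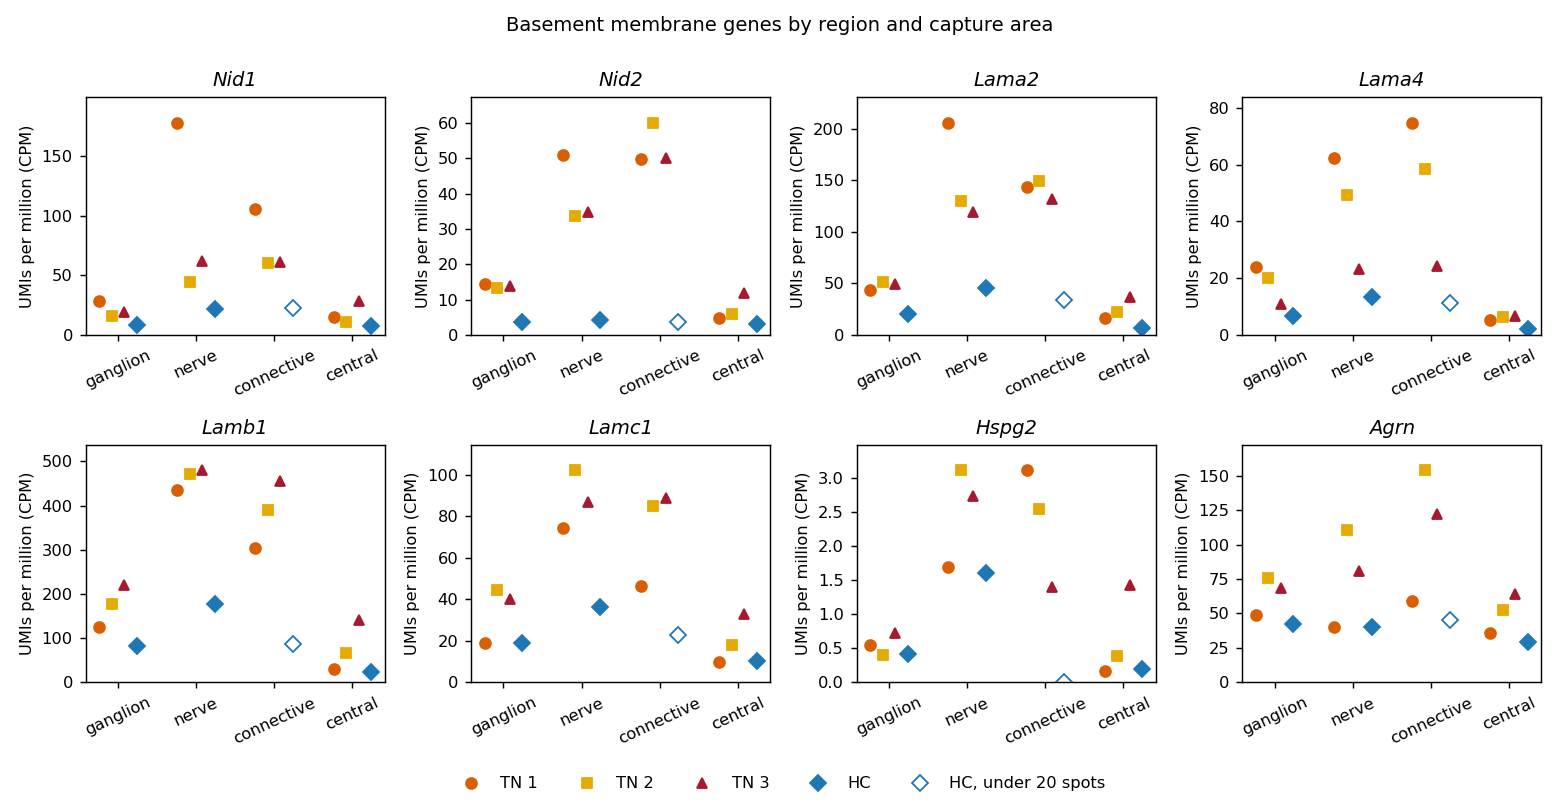
Level of each gene (y axis, CPM, from 0) in 4 regions (x axis), with 1 symbol per capture area and an open symbol for the HC connective region, which has 14 spots. Lamb1 is highest in nerve in all areas, at 435 to 480 CPM in TN and 178 CPM in HC, whereas Agrn has no such peak.

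**Figure D2:**
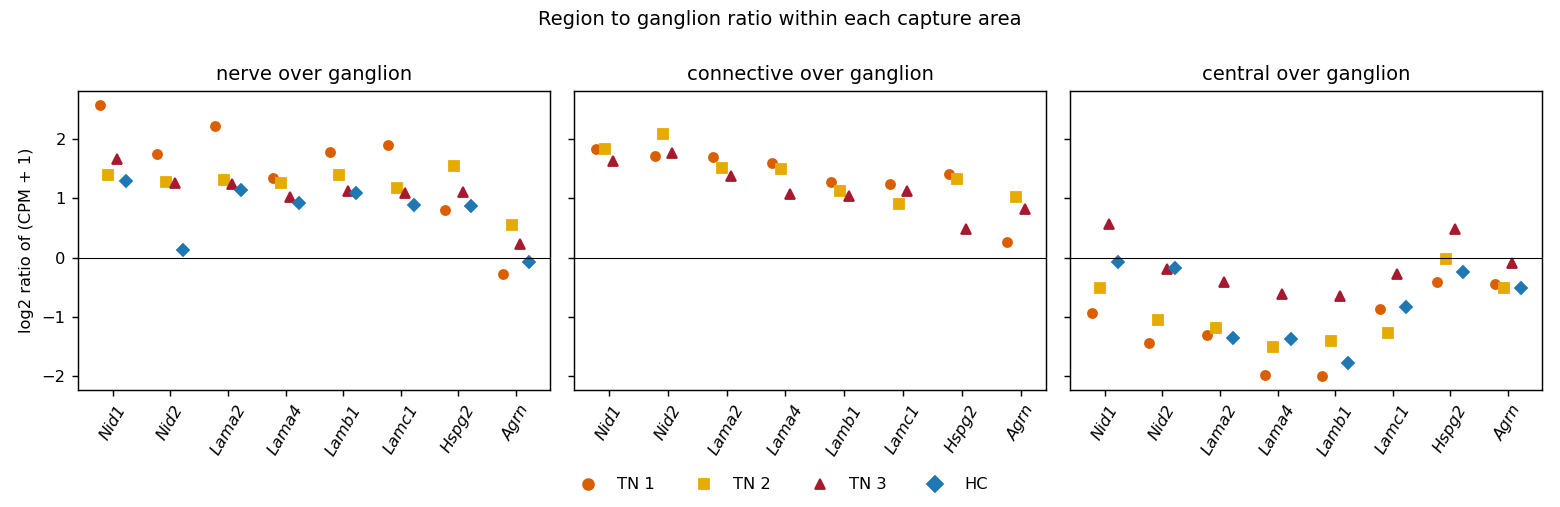
Log2 ratio of CPM plus 1 of the nerve, connective and central region to the ganglion (y axis) for each gene (x axis), with 1 symbol per capture area and no HC value for the connective region. All symbols but those of Agrn are above 0 in the nerve panel, all are above 0 in the connective panel, and most are below 0 in the central panel.

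The share of an area's UMIs that came from nerve spots gives the same counts in another form. The nerve region held 15.0%, 20.7%, 22.6% and 10.5% of all UMIs of TN 1, TN 2, TN 3 and HC, but 44.5%, 34.1%, 31.7% and 20.7% of those of Lamb1. For Lama2 the shares were 50.8%, 29.9%, 30% and 21.8%. Agrn stayed near the share of all UMIs, with 13.6%, 22.6%, 21.6% and 10.7%. The connective region held 22.3% and 24.3% of all UMIs of TN 2 and TN 3, but 46.8% and 42.6% of those of Nid2.

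The shares of spots with a UMI depended on depth. After each spot was thinned to 2000 UMIs, which left out 9, 16, 116 and 9 shallower spots of TN 1, TN 2, TN 3 and HC, Lama2 was found in 32.9%, 22.6%, 22.0% and 10.5% of nerve spots. The exact binomial 95% confidence intervals were 28.4% to 37.7% in TN 1 and 7.01% to 14.9% in HC, and they cover counting error only. In central spots, where little Lama2 was found, the thinned shares were 4.22%, 2.94%, 4.63% and 1.18%. Without thinning, the nerve shares were 74.5%, 95.4%, 65.8% and 47.9%, at median depths of 7993, 29939, 13294 and 16321 UMIs per spot, and the central shares 14.8%, 27.1%, 22.1% and 7.08%, at 8452, 13468.5, 6827.5 and 11458 UMIs. Lamb1 was found in 56.3%, 64.2%, 63.3% and 24.8% of thinned nerve spots of TN 1, TN 2, TN 3 and HC. Without thinning the deepest area, TN 2, had the highest share of Lama2 in nerve, and after thinning TN 1 had it.

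Over the 15 sums of 4 regions and 4 areas, without the connective region of HC, the 8 genes varied together to different degrees. These correlations of log2(CPM + 1) are descriptions, since sums of an area share a library and depth. The closest pair was Lamb1 and Lamc1 with Pearson's r of 0.972, followed by Lama2 and Lamb1 with 0.961. The least alike were Nid1 and Agrn with 0.429. Of 7924 genes with a mean of 10 CPM or more, the most like Lama2 were Dcn with 0.989, Itprid2 with 0.987 and Lum with 0.976, and Dcn and Lum are fibroblast proteoglycans. The most like Lamb1 were Tax1bp3, Ahnak and Itpr3, at 0.982 to 0.990. For Lamc1 they were Rab34, Vwa1 and Tax1bp3, at 0.984 to 0.993, and Vwa1 encodes a matrix protein that binds perlecan. For Nid1 they were Col5a2, Cldn1, a tight junction gene of the perineurium, and Il33, at 0.95 to 0.968. Nid2 was most like Kdelr2, Clec3b and Frmd6, at 0.955 to 0.971, and Lama4 most like C1qtnf2, Il34 and Cpq, at 0.940 to 0.952. Agrn was most like Ugdh, which makes the sugar precursor of heparan sulfate, Col9a2 and Pip5k1a, at 0.966 to 0.971. The low counts of Hspg2 gave Bcl7c, Smurf1 and Fbxo6, at 0.935 to 0.941.

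The comparison of TN with HC asks how the tissue of the compressed side differed from control tissue. For each area the UMIs were added up, over all spots and within each region, and edgeR's quasi-likelihood test was run on these sums, 3 of TN and 1 of HC. With a single HC area, the spread comes from TN alone, and an effect of the condition and one of the area cannot be told apart. More cells that express a gene and more RNA per cell cannot be told apart in these sums either.

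Over all spots, every one of the 8 genes had a positive fitted log2 fold change, and none (0) passed an adjusted p of 0.05, as was the case for all 14902 genes tested (0% called). At an unadjusted p under 0.05 there were 1271 genes, 5 of the 8 among them (Nid1, Nid2, Lama2, Lama4 and Lamb1), and DESeq2 called 144 genes, 3 of the 8 among them. The median log2 fold change of the 8 was 1.56, and that of all genes tested 0.07. Nid2 stood at 17.6, 28.7 and 28.4 CPM in TN 1, TN 2 and TN 3 and at 3.895 CPM in HC (log2 fold change 2.59 ± 0.43 SE, edgeR adjusted p = 0.556). Agrn stood at 44.2, 101 and 84.6 CPM in TN and 39.7 CPM in HC (0.86 ± 0.50 SE, edgeR adjusted p = 0.576). In 7 of the 8 genes, all but Hspg2, the 3 TN areas lay above HC, which held for 34.9% of the genes tested. 6 of the 8 also had a fitted fold of 2 or more, against 10.8% of the genes tested. Without TN 1 the fit called 2171 genes, 6 of the 8 among them, and without TN 2 or TN 3 it called 0.

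The makeup of the areas moved with these values. The connective region held 1.36%, 22.3% and 24.3% of the UMIs of TN 1, TN 2 and TN 3 and 0.639% of those of HC. The 7 connective tissue markers summed to 1966, 5472 and 5308 CPM over all spots of the TN areas and to 1443 CPM in HC, with 6 of the 7 above HC in all 3. The 6 macrophage markers summed to 264, 566 and 773 CPM in TN and 186 CPM in HC, and the 10 sensory neuron markers, all below HC in all TN areas, to 4600, 4218 and 3020 CPM in TN and 6505 CPM in HC. Their part in the values over all spots was not tested.

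In the ganglion, the cell bodies of the sensory neurons are wrapped by satellite glia with their own basement membrane. The 7 genes that passed the filter on low counts, all but Hspg2, were higher in each of the 3 TN areas than in HC, which held for 35.7% of the 12261 genes tested. Lamc1 in TN 1 was so by a slight margin only, at 19.22 CPM against 19.08 CPM in HC. Of the 7, 5 also had a fitted fold of 2 or more, against 7.68% of the genes tested. None (0) of the 7 and none of the 12261 genes passed the adjusted p of edgeR (0% called). At an unadjusted p under 0.05 there were 1417 genes, with Nid1, Nid2, Lama2, Lama4 and Lamb1 among them, and DESeq2 called 146 genes, with Nid2 and Lama2 among them. The median log2 fold change was 1.22 over the 7 and 0.03 over all genes tested.

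Nid2 differed most evenly in the ganglion, with 14.5, 13.4 and 13.9 CPM in TN 1, TN 2 and TN 3 and 3.72 CPM in HC. The TN mean was 13.9 ± 0.52 CPM (SD, n = 3 areas), and the log2 fold change 1.84 ± 0.28 (SE, edgeR adjusted p = 0.38). Lama2, at the levels given above, had a TN mean of 48.3 ± 4.38 CPM (SD, n = 3 areas) against 19.9 CPM in HC and a log2 fold change of 1.22 ± 0.20 (SE, edgeR adjusted p = 0.388). The other laminin chains were less even. Lama4 had a log2 fold change of 1.39 ± 0.47 (SE), Lamb1 of 1.01 ± 0.33 (SE), Lamc1 of 0.81 ± 0.47 (SE) and Nid1 of 1.30 ± 0.39 (SE), with edgeR adjusted p of 0.414 to 0.521. Agrn had the smallest, 0.54 ± 0.27 (SE, edgeR adjusted p = 0.478). Left without TN 1, in which Lamb1, Lamc1 and Agrn were the lowest of the TN areas, the ganglion fit called 513 genes, with Nid2, Lama2, Lamb1 and Lamc1 among them.

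Of the 3 clusters of the ganglion region, 1 had no HC spot. That cluster held 72, 119 and 43 spots of TN 1, TN 2 and TN 3, and its leading genes were Csrp3, Gal and Vip, which injured sensory neurons are known to switch on. None of its 10 leading genes was on the sensory neuron list. In the other 2 clusters, which all areas had, Lama2 stood at 38.1, 45.7 and 46.2 CPM in TN and 19.1 CPM in HC in the first, and at 35.5, 47.1 and 46.7 CPM in TN and 20.6 CPM in HC in the second. In the cluster without HC spots it stood at 53.8, 55.5 and 64.4 CPM. Of the 8 genes, 3 (Lama2, Nid1 and Agrn) were higher there than in the other 2 clusters in all 3 TN areas, and each of the other 5 was not in at least 1 area. Nid2 in TN 2, for example, stood at 14.3 CPM there and at 19.5 CPM in the first of the others. With the region restricted to the 2 clusters that all areas had, an alternative chosen after the clusters had been seen, the median log2 fold change of the 7 genes was 1.07, that of Nid2 1.66 ± 0.31 (SE) and that of Lama2 1.07 ± 0.22 (SE), and 0 genes were called.

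Marker lists differed in how far they moved with the ganglion values. The 5 satellite glia markers summed to 412, 346 and 445 CPM in the ganglion of TN 1, TN 2 and TN 3 and to 334 CPM in HC. Of these, 2 of the 5 were above HC in all 3 TN areas, against 35.7% of the genes tested. The 7 repair Schwann cell markers summed to 761, 961 and 731 CPM in TN and 680 CPM in HC, with 3 of the 7 above, 1 below and Gdnf at 0 in HC. Most of that sum was Ngfr, which lay on both sides of HC, at 555, 635 and 525 CPM in TN and 568 CPM in HC. The 7 connective tissue markers summed to 1060, 2550 and 2447 CPM in the ganglion of TN 1, TN 2 and TN 3 and to 809 CPM in HC, with 5 of the 7 above HC in all 3 TN areas. The 6 macrophage markers summed to 181, 355 and 265 CPM in TN and 107 CPM in HC, with 5 of the 6 above HC in all TN areas and 1 below. The 7 nerve injury genes summed to 1549, 3107 and 1442 CPM in TN and 556 CPM in HC, with all 7 above. The 7 endothelial markers found, at 144, 169 and 173 CPM in TN and 147 CPM in HC, did not separate the groups, and neither did the 7 mural cell markers, at 61.0, 90.5 and 88.0 CPM against 65.1 CPM, with Notch3 at 0 in TN 2 and HC. The 5 perineurial markers summed to 329, 453 and 406 CPM in TN and 301 CPM in HC, with 3 above HC in all TN areas and Perp below. Most of this sum was Itgb4, also on the receptor list read below, at 213, 337 and 277 CPM in TN and 187 CPM in HC. The part of these cell types in the values of the 8 genes was not tested.

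In the nerve region, Nid2 and the 3 chains of the Schwann cell laminin were higher in every TN area than in HC, but short of the adjusted threshold. All 8 genes were tested there and had positive log2 fold changes, with a median of 1.48 against 0.05 over all 11709 genes tested. None (0) of them and no other gene passed the adjusted p of edgeR (0% called). At an unadjusted p under 0.05 there were 2777 genes, with Nid2, Lama2, Lama4, Lamb1 and Lamc1 among them, and DESeq2 called 875 genes, with Nid2, Lama2, Lamb1 and Lamc1 among them. The 3 TN areas were above HC in 7 of the 8, all but Agrn, against 36.9% of the genes tested. A fitted fold of 2 or more came with that in 6 of the 8, against 13% of the genes tested. Hspg2 in TN 1 was above HC by a slight margin only, at 1.694 against 1.607 CPM, or 6 against 7 UMIs. Agrn in TN 1 was as narrowly below HC, at 40.09 against 40.18 CPM.

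Nid2 came nearest to the threshold, with a log2 fold change of 3.19 ± 0.48 (SE, edgeR adjusted p = 0.0605). It was counted 180, 271 and 253 times in the nerve spots of TN 1, TN 2 and TN 3 and 18 times in those of HC. Lamb1 was next, with 462 ± 23.9 CPM in TN (SD, n = 3 areas) against 178 CPM in HC and a log2 fold change of 1.30 ± 0.26 (SE, edgeR adjusted p = 0.0736). Lamc1 had 87.8 ± 14.0 CPM in TN (SD, n = 3 areas) against 36.3 CPM in HC and a log2 fold change of 1.197 ± 0.25 (SE, edgeR adjusted p = 0.0756). For these 3 the lowest TN area was well above HC. Lama2 had a log2 fold change of 1.69 ± 0.46 (SE, edgeR adjusted p = 0.109), and Lama4 of 1.65 ± 0.62 (SE, edgeR adjusted p = 0.188). Nid1 had a larger value of 2.07, but TN 1 stood so far above TN 2 and TN 3 that the SE was 0.96 (edgeR adjusted p = 0.259). Hspg2 and Agrn had 0.59 ± 0.70 and 0.85 ± 0.51 (SE). With the filter on low counts lifted, the nerve fit called 713 genes, and without TN 1 it called 1039, each time with Nid2, Lama2, Lamb1 and Lamc1 among them. Without TN 2 it called 750 genes, Nid2 and Lama2 among them.

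The nerve spots of HC held more neuronal and fewer connective tissue transcripts than those of TN. The 7 connective tissue markers summed to 7244, 6286 and 5938 CPM in TN 1, TN 2 and TN 3 and to 2613 CPM in HC, with 6 of the 7 above HC in all 3 TN areas. The 10 sensory neuron markers summed to 1649, 2670 and 1188 CPM in TN and to 5540 CPM in HC, with all 10 below HC in all 3 TN areas. The 8 peripheral myelin markers summed to 121100, 49280 and 79240 CPM in TN and 69870 CPM in HC, on both sides of HC, and the 7 endothelial markers to 235, 237 and 273 CPM against 237 CPM. The 6 macrophage markers summed to 331, 601 and 636 CPM in TN and 140 CPM in HC, with 5 of the 6 above HC in all TN areas. The 5 perineurial markers summed to 781, 791 and 740 CPM in TN and 592 CPM in HC. Of these, 3 were above HC in all TN areas, Perp was below HC in all, and Lypd2 was at 0 in HC. Most of this sum was Itgb4, also on the receptor list read below, at 590, 667 and 567 CPM in TN and 467 CPM in HC. The part of these cell types in the nerve values was not tested.

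In central spots, where basement membranes lie along vessels and at the surface of the tissue, the levels were low in all areas. Lama2 stood at 16.9, 22.1 and 37.0 CPM in TN 1, TN 2 and TN 3 and at 7.10 CPM in HC (log2 fold change 1.76 ± 0.56 SE), and Lama4 at 5.35, 6.34 and 6.84 CPM in TN and 1.97 CPM in HC (1.57 ± 0.52 SE). These were the 2 of the 7 genes tested with an unadjusted p under 0.05, among 461 of the 11747 genes tested. Without TN 2 there were 72 such genes and 0 of the 7 among them, and without TN 3 there were 1936, with 1 of the 7. None (0) of the 7 and no other gene passed the adjusted p of edgeR, which was 0.947 for each of the 7 (0% called), and DESeq2 called 0 genes. TN 3 was the highest of the TN areas for each of the 7. All TN areas were above HC in 6 of the 7, all but Lamc1, against 29.2% of the genes tested, and 5 of the 7 also had a fitted fold of 2 or more, against 8.07%. The median log2 fold change was 1.16, against 0.14 over all genes tested. The makeup of these spots differed between areas, since the central neuron cluster held 249 spots of TN 1, 126 of TN 2 and 0 of TN 3 and HC. Without that cluster, a choice made after it had been seen, the median log2 fold change of the 7 was 1.65, and 5 of the 7 had an unadjusted p under 0.05 among 452 genes. The 7 connective tissue markers summed to 403, 1599 and 2293 CPM in the central spots of TN 1, TN 2 and TN 3 and to 545 CPM in HC. The 7 endothelial markers summed there to 205, 241 and 218.5 CPM in TN and 169 CPM in HC, and the 7 mural cell markers to 67.2, 89.4 and 82.1 CPM in TN and 54.3 CPM in HC, with 4 of the 7 of each list above HC in all TN areas. In TN 3, the peripheral myelin markers summed to 9644 CPM, against 4244 CPM in HC, and the macrophage markers to 1563 CPM, against 554 CPM. The part of these cell types in the central values was not tested.

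Whether the TN against HC difference was of another size in the ganglion than in central spots was read from an interaction term, with a block for each area. None (0) of the 7 genes tested and none of the 11215 genes passed the adjusted p of edgeR (0% called). At an unadjusted p under 0.05 there were 636 genes, 0 of the 7 among them, and DESeq2 called 2 genes. The unadjusted p of the 7 in this edgeR fit ran from 0.287 to 0.977. Without TN 3, the edgeR fit called 1562 genes, 0 of the 7 among them.

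The connective region could not be tested. Its levels in the 3 TN areas were 53.3 ± 5.87 CPM for Nid2, 141 ± 8.75 CPM for Lama2, 383 ± 75.1 CPM for Lamb1 and 112 ± 48.2 CPM for Agrn (SD, n = 3 areas). The 14 HC spots held 1 UMI of Nid2, 9 of Lama2, 23 of Lamb1 and 12 of Agrn among 263989 UMIs. The 26 spots of TN 1 held 16, 46, 98 and 19 UMIs of these genes among 321051, so the TN 1 values also rest on few molecules.

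**Figure D3:**
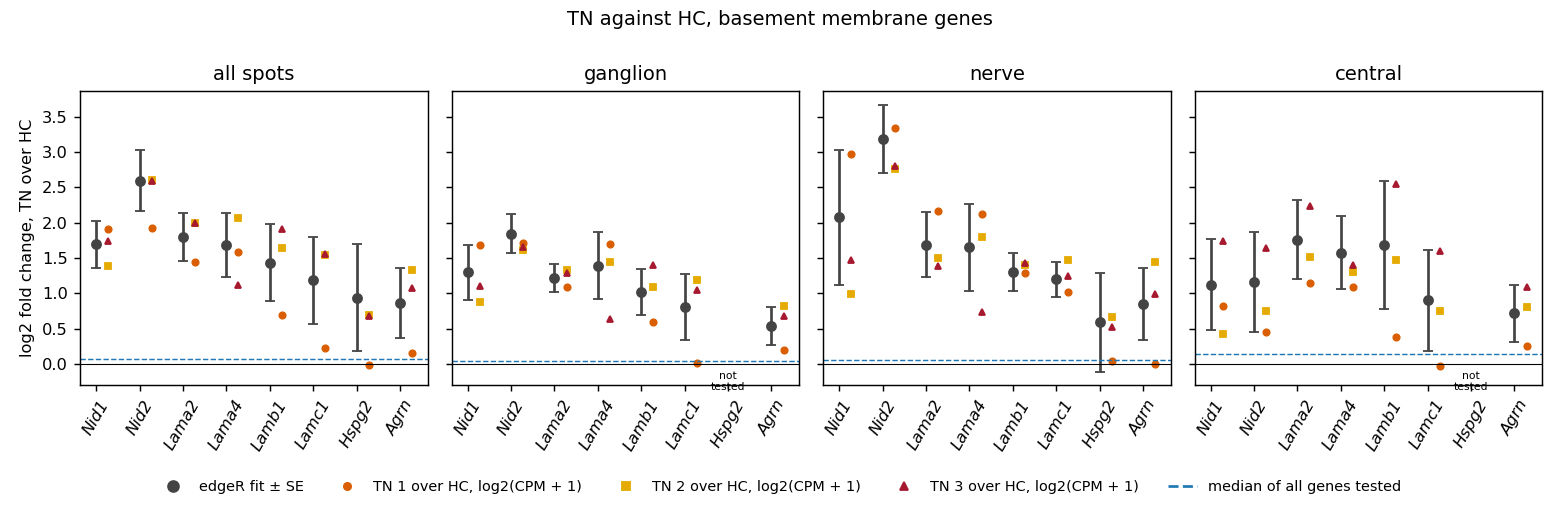
Log2 fold change of TN over HC (y axis) for the 8 genes (x axis) over all spots and in 3 regions. Dark points with bars are the edgeR estimate with an SE derived from the F statistic of its test. Small symbols are the log2 ratio of CPM plus 1 of each TN area to HC, and the dashed line is the median of all genes tested. Nid2 in nerve is the highest estimate, at 3.19, and every estimate lies above 0.

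The wider basement membrane was read from lists of related genes, of which 60 of 61 were found. None (0) of these genes passed the adjusted p of edgeR in any comparison. Among the other laminin chains, 5 were tested in the ganglion, with a median log2 fold change of 0.51, and 4 in nerve, with 0.15. Lama1, an alpha chain of embryonic and meningeal basement membranes, stood at 14.1, 5.73 and 16.0 CPM in the nerve spots of TN 1, TN 2 and TN 3 and at 0.918 CPM in HC (log2 fold change 3.61 ± 0.99 SE, edgeR adjusted p = 0.109). A count of 3 UMIs in that HC sum makes 0.689 CPM, so the HC value of Lama1 rests on few molecules. Lamb2 was at 254, 299 and 298 CPM in TN and 196 CPM in HC, and Lama5 at 37.0, 35.9 and 35.9 CPM in TN and 38.6 CPM in HC.

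The collagens of basement membranes had medians of 0.99 in the ganglion (5 tested) and 1.46 in nerve (6 tested) on the log2 scale. Col18a1, the precursor of endostatin, stood at 152, 942 and 666 CPM in the nerve spots of TN 1, TN 2 and TN 3 and at 83.8 CPM in HC (2.70 ± 1.01 SE, edgeR adjusted p = 0.187). TN 1 was the lowest TN area for Col18a1 in nerve as well as in the ganglion, where it stood at 55.9, 351 and 230 CPM in TN and 40.7 CPM in HC. Col15a1, of the outer face of basement membranes, stood at 389, 329 and 256 CPM in TN and 164 CPM in HC in nerve (0.91 ± 0.35 SE). Col4a5 stood at 6.78, 5.86 and 7.95 CPM against 1.61 CPM (2.01 ± 0.56 SE), with a mean of only 34 UMIs per area. Col4a4 was below HC in all TN areas, by -0.22 ± 0.37 (SE) on the log2 scale. Col4a1 stood at 592, 400 and 484 CPM in the nerve spots of TN and 361 CPM in HC (0.39 ± 0.36 SE). In the ganglion it stood at 156, 195 and 216 CPM in TN and 157 CPM in HC (0.20 ± 0.22 SE). Col4a2 stood at 3.95, 0.873 and 0.822 CPM in the nerve spots of TN 1, TN 2 and TN 3 and had 0 UMIs in those of HC. It had a mean of 6.75 UMIs per area in nerve, against 2602 for Col4a1, so its values rest on few molecules. Against a floor of 3 counts in the HC sum its TN mean was 2.73-fold higher, and 1.23-fold higher without TN 1. The floor allows for counting error in HC and not in TN, so these values are not lower limits. With Col4a2 at these values, the median of the collagens in nerve was 1.18, and 0.65 for the value without TN 1.

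Of the matrix partners, 7 were tested in nerve, with a median log2 fold change of 0.56. Fn1, fibronectin, stood at 191, 333 and 293 CPM in the nerve spots of TN 1, TN 2 and TN 3 and at 61.3 CPM in HC (2.07 ± 0.37 SE, edgeR adjusted p = 0.0647). Fbln1 stood at 39.0, 58.7 and 74.2 CPM in TN and 17.9 CPM in HC (1.61 ± 0.41 SE), and Egflam, the dystroglycan ligand pikachurin, at 64.1, 87.3 and 76.8 CPM in TN and 31.9 CPM in HC (1.17 ± 0.25 SE, edgeR adjusted p = 0.076). Fbln2, which binds nidogen and laminin, was lower in TN, at 318, 315 and 252 CPM against 516 CPM in HC (-0.88 ± 0.26 SE, edgeR adjusted p = 0.124). In the ganglion the median of the 7 matrix partners tested was 0.76, and Tinagl1 stood there at 11.9, 15.6 and 17.2 CPM in TN and 8.40 CPM in HC.

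The receptors had medians of 0.50 in the ganglion (13 tested) and 0.48 in nerve (12 tested). Itga6, an integrin chain for laminin, stood at 414, 336 and 416 CPM in the nerve spots of TN 1, TN 2 and TN 3 and at 194 CPM in HC (0.94 ± 0.32 SE, edgeR adjusted p = 0.156). Lrp4, the receptor for agrin, stood at 15.8, 15.8 and 19.7 CPM in TN and 7.12 CPM in HC (1.196 ± 0.35 SE), and Sdc2, a syndecan, at 63.5, 62.5 and 48.6 CPM against 26.6 CPM (1.05 ± 0.28 SE). Other laminin receptors had lower levels in TN. Bcam, the Lutheran receptor for the laminin chain of Lama5, stood at 174, 284 and 138 CPM in TN and 629 CPM in HC (-1.75 ± 0.36 SE, edgeR adjusted p = 0.0743), and Itga3 at 16.7, 19.7 and 9.04 CPM in TN and 34.9 CPM in HC (-1.29 ± 0.41 SE). In the ganglion, Bcam stood at 640, 646 and 540 CPM in TN and 813 CPM in HC. The sensory neuron markers moved with Bcam and Itga3 in nerve, and their part was not tested.

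The enzymes that put the laminin-binding sugar on dystroglycan had medians close to that of all genes, with 0.17 in the ganglion and 0.12 in nerve (8 tested in each). Of the proteases and inhibitors, 9 were tested in the ganglion, with a median of 0.61, and 8 in nerve, with 1.40. Timp1, an inhibitor of matrix metalloproteinases, stood at 337, 671 and 691 CPM in the nerve spots of TN and 158 CPM in HC (1.75 ± 0.47 SE, edgeR adjusted p = 0.107). Adamts1, a protease that cuts proteoglycans, stood at 9.32, 7.23 and 5.21 CPM in TN and 0.689 CPM in HC (3.27 ± 0.73 SE, edgeR adjusted p = 0.0814). Its HC value lay at the floor of 3 counts, so this fold change rests on few molecules. In the ganglion, Mmp14, the membrane-bound activator of Mmp2, stood at 5.52, 5.19 and 4.51 CPM in TN and 1.26 CPM in HC (1.94 ± 0.42 SE), and Mmp2 at 38.0, 113 and 83.5 CPM against 25.1 CPM (1.57 ± 0.59 SE).

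**Figure D4:**
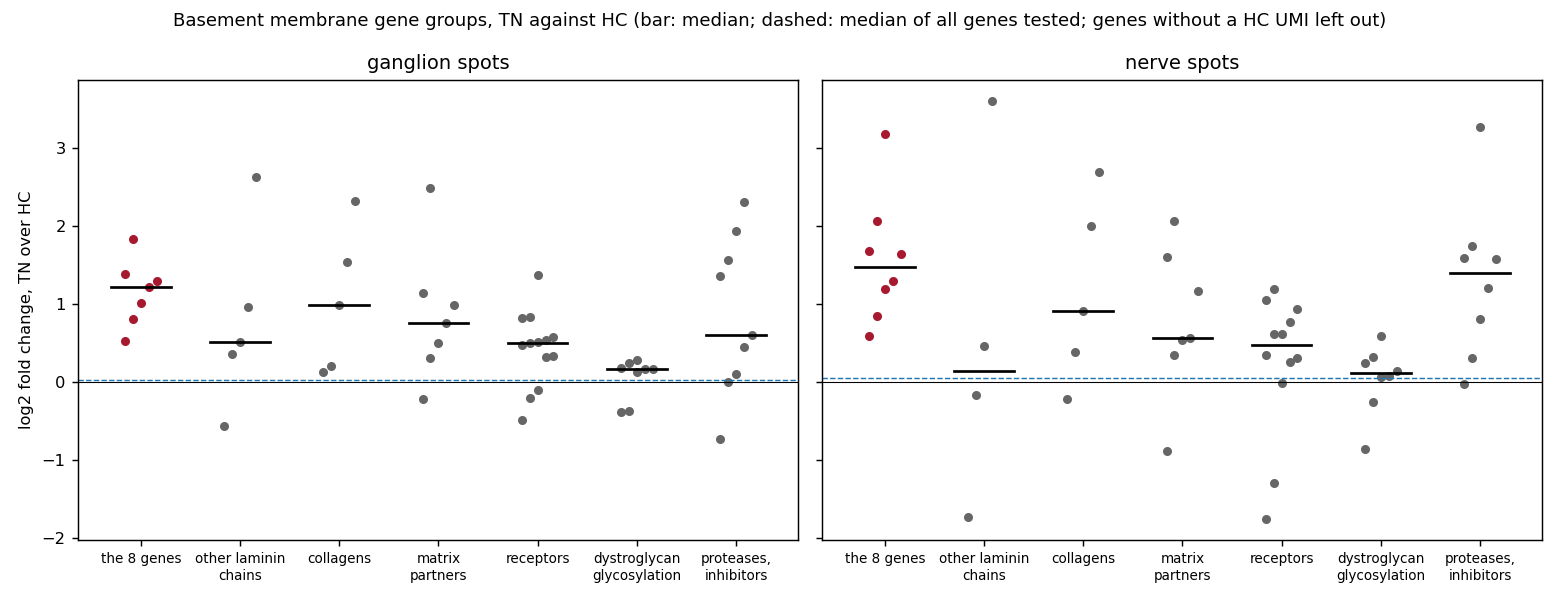
Log2 fold change of TN over HC (y axis) for the 8 genes (red) and 6 lists of related genes (gray) in ganglion and nerve spots. Each gene tested with a UMI in HC has 1 point. A bar marks the median of the points of each list, and a dashed line the median of all genes tested. Col4a2, with 0 UMIs in the nerve spots of HC, has no point. The bar of the nerve collagens is therefore not at the median given in the text for all collagens tested. The 8 genes have medians of 1.22 and 1.48, all of their points lie above 0, and each of the 6 lists but the collagens of the ganglion has a point below 0.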

How the data were processed

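Spatial RNA profiles of 3 TN areas and 1 HC area were used. The authors deposited raw UMI counts per gene and spot for spots under tissue, without normalization, in a single matrix whose barcode endings give the area. The file header names Space Ranger 1.2.0, and the submitters' processing notes also name STAR. Not given in the sources used here: genome build, annotation release and any equalising of depth.

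The 8 genes, the lists and the tests were chosen with earlier results of these data known. SCTransform was run for each area on genes found in 10 or more spots (Seurat 5.3.0, sctransform 0.4.2). The 3000 most variable genes, without the 8 genes and the lists, gave 30 principal components. The areas were integrated and split into 10 clusters by K-means (50 starts). A cluster's score on a marker list was the mean of its centred log2(CPM + 5) values, and a cluster whose best scores lay within 0.25 was left unnamed. Some spots hold several cell types, and these clusters are not those of the study.

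The sums were tested with the quasi-likelihood fit of edgeR 4.0.16 (filterByExpr, TMM, R 4.3.3) with Benjamini-Hochberg adjustment over all genes tested at 0.05, if every area had 20 or more spots of the region. The fit left 2 residual degrees of freedom. The edgeR test gives no SE, so each SE is the absolute log2 fold change divided by the square root of the F statistic. TN areas are 1 rat each, and HC pools 2 rats that may be among them, which the fit did not model. Per-area log2 ratios used CPM plus 1. Genes of the wider lists were named if past the threshold, and otherwise up to 3 in each direction per list and region with the largest fold change, a mean of 20 or more UMIs per area and every TN area on 1 side of HC, and the text gives a selection of these. Lama5, Lamb2, Col4a1, Col4a2 and Col4a4 were also described. For each of the 8 genes, the 3 most like genes by Pearson's r were named. Promoter windows are from RefSeq on GRCr8, a build that may differ from that of the files, and were matched by symbol.

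The alternatives were DESeq2 1.42.0 and its size factors, low counts kept, each TN area dropped, genes of mitochondria, ribosomes and hemoglobin dropped, only spots of 500 or more genes and 1000 or more UMIs, no integration, 8 or 12 clusters, the list genes kept, log-normalised counts, CPM plus 5, no thinning, and 3 regroupings of clusters chosen after the data had been seen. The fits were tested on simulated counts. Images, deconvolution and protein sequences were not used here, and no doublet caller was applied to spots. Some genes of the lists are not reported here.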

Additional observations from a re-analysis of the deposited data

How the results depend on the processing

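All 363 recomputed log2 fold changes of TN against HC of the 8 genes, over all spots and by region, kept their positive sign, and 30 of them passed the adjusted threshold that no value of the report passed. The calls therefore depend on the setting. DESeq2 called 144 genes over all spots (3 of the 8), 146 in the ganglion (2), 875 in nerve (4), and 2 for the interaction. Leaving out 1 TN area gave between 0 and 2171 called genes over all spots (0 to 6 of the 8), 0 to 513 in the ganglion (0 to 4), 0 to 1039 in nerve (0 to 4), 0 to 86 in the central region and 0 to 1562 for the interaction. The highest counts came without TN 1, and for the central region and the interaction without TN 3. Without the filter on low counts, 3 genes were called in the ganglion and 713 in nerve (4 of the 8). In nerve, 8 clusters gave 130 called genes, the list genes kept in the clustering 73, and log-normalised counts 380 (1 of the 8). The cause of these changes was not tested. The other 135 recomputed counts of calls and of genes higher or lower by region stayed within 1.5 times the reported ones. Counts at an unadjusted p under 0.05 moved more: with 1 TN area left out they ran from 395 to 5097 genes over all spots (4 to 8 of the 8), 744 to 2570 in the ganglion (5 to 7), 1576 to 3685 in nerve (6 to 7), 72 to 1936 in the central region (0 to 2) and 163 to 3339 for the interaction (0). Of the recomputed region ratios, 272 stayed within 1 SD of the reported value, 16 moved further, and none (0) of the means of those with 1 sign in every area changed sign. Single areas did for Hspg2 in the connective region, with lowest values of -0.22 without integration and -0.59 with log-normalised counts. Of the 160 shares of spots, 150 left their interval without thinning, which raises the chance of a UMI. Nerve without integration and the connective region under every clustering had too few spots in at least 1 area to be tested. Without integration, nerve had 11 spots in TN 2 and 17 in HC, and connective 1 in TN 1 and 0 in HC. No paired analysis was possible because HC is 1 area that pools 2 animals, and the labels do not say which TN areas they would pair with. With 2 residual degrees of freedom, a p that misses the threshold does not show equal levels.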

Other observations

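The spots outside the 4 named regions also held the 8 genes. In the cluster left without a name, with 126, 181, 231 and 438 spots of TN 1, TN 2, TN 3 and HC, Nid2 stood at 17.1, 21.3, 24.6 and 4.04 CPM, and Lama2 at 53.1, 78.2, 87.0 and 25.1 CPM. Lamc1 stood there at 20.5, 63.5, 61.5 and 25.6 CPM, so TN 1 was below HC. In the blood and bone spots, Nid1 stood at 22.2, 33.5, 49.9 and 15.9 CPM and Lama2 at 18.2, 59.3, 80.7 and 13.5 CPM. Lamb1 stood there at 51.9, 147, 227 and 57.3 CPM, with TN 1 below HC and TN 2 and TN 3 above it. These values were not tested.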
